A study of Mus musculus with 16 samples.

Results

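The Hippo kinase core and its upstream scaffolds were followed in progenitors of the hearing organ of the mouse, the organ of Corti. The group holds 10 genes, found by symbol among the 48709 genes of the RNA tables. It comprises Stk3, Stk4, Sav1, Mob1a, Mob1b, Lats1 and Lats2 of the core and the scaffolds Nf2, Wwc1 and Frmd6. Every deposited interval of open chromatin, H3K27ac or Tead binding within 50 kb of these genes was also taken. The later cells were p27-GFP positive and from day E13.5, and the earlier cells were Sox2-GFP positive and from day E12.0, both sorted by FACS from cochlea. RNA-seq had 2 libraries per stage, ATAC-seq, which maps open chromatin, had 3 per stage, and CUT&RUN for the acetylated histone H3K27ac had 2 per stage. CUT&RUN with an antibody against all Tead proteins had 2 libraries, at E12.0 only. Age and sorting reporter change together and cannot be told apart. The labels name no promoter or strain behind the reporters. They also leave out which litters or pools the replicates come from, so each p-value reflects the spread between libraries, which may be technical.

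The Hippo pathway is a kinase cascade that limits organ growth. The kinases Stk3 and Stk4, held by the adaptor Sav1, phosphorylate the Lats kinases and their Mob1 co-activators. Active Lats kinases phosphorylate the co-activators Yap and Taz, which keeps them out of the nucleus and away from the Tead transcription factors. Nf2, Wwc1 and Frmd6 are scaffolds at the cell cortex that bring the kinases together upstream.

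Total expected counts were 17057751 and 19570946 in the E13.5 RNA libraries and 9412326 and 9810603 in the E12.0 libraries. The mitochondrial ribosomal RNA mt-Rnr2 took 0.295 and 0.18% of the E13.5 counts and 16.99 and 13.2% of the E12.0 counts. All 14 markers of prosensory and otic epithelium had reads in all 4 libraries. They summed to 5657 and 6034 CPM at E13.5 against 4215 and 4172 at E12.0. By the test described below, 4 were called higher (28.6%, against 22.4% of all genes tested) and 3 lower (21.4%, against 23.5%). Effective lengths were shorter than gene lengths by a median of 189 and 188 bases at E13.5 and 146 and 141 bases at E12.0. This gap comes from the quantifier, which no source used here states, and is not read as a measured fragment size. Depth, mt-Rnr2 and this measure all split by stage, and their part in the RNA differences was not tested. Of the reporter genes, Cdkn1b (p27) was higher in the p27-GFP sort, at 229 and 182 CPM at E13.5 against 7.70 and 8.59 at E12.0. Sox2 was also higher at E13.5, at 152 and 169 CPM, against 36.9 and 39.4 CPM in the E12.0 cells sorted for Sox2-GFP. The series has no library of reporter-negative cells, so neither gene tests a sort. Markers of other cells moved with stage. Summed levels were 367 and 466 CPM at E13.5 against 1274 and 1142 at E12.0 for 8 mesenchyme markers, nearly all from Lum, while Pou3f4 and Tbx18 had no reads at E12.0. They were 646 and 681 CPM at E13.5 against 1792 and 2102 at E12.0 for 6 glial and neural crest markers, mostly from Erbb3, while Sox10 was higher at E13.5. The 10 neuronal markers summed to 26.1 and 23.7 CPM at E13.5 and 47.2 and 58.3 CPM at E12.0. Melanocyte markers summed to 4.67 and 27.9 CPM at E13.5 and 4.26 and 3.30 CPM at E12.0, and endothelial, erythroid and immune markers to at most 11.97 CPM in any library, with Cx3cr1 and Tyrobp at 0 in all 4. The part of these cells in the differences below was not tested.

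Promoter windows of 300 bases, running from 250 bases before to 50 bases after the start site, were matched for 9 of the 10 genes in the RefSeq table of GRCm38.p6. Nf2 and Lats2 have a second window each, and Stk3 has none in the table. The windows of 5 genes are printed here because the results turn on them or because they hold the core of the Tead motif. Sav1 and Wwc1 had the largest RNA differences of the group, and Stk4 was the gene whose promoter carried H3K27ac in all 4 libraries. Mob1a, Lats2 and Sav1 hold the letters GGAATG or, on the other strand, CATTCC, which are in capitals. Each line runs 5′ to 3′ along the gene.
Sav1, chr12:69986953-69987252, minus strand: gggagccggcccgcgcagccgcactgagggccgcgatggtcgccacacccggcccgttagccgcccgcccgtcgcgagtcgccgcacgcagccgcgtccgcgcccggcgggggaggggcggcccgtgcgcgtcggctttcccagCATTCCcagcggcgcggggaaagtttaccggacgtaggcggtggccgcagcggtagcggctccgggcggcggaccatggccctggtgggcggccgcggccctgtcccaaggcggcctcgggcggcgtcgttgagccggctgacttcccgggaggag
Wwc1, chr11:35980478-35980777, minus strand: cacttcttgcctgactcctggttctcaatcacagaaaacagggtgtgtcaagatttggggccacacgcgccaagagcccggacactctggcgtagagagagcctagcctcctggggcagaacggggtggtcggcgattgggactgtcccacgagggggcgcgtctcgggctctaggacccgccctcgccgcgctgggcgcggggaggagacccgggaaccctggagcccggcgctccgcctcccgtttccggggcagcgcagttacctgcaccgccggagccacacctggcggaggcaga
Stk4, chr2:164073888-164074187, plus strand: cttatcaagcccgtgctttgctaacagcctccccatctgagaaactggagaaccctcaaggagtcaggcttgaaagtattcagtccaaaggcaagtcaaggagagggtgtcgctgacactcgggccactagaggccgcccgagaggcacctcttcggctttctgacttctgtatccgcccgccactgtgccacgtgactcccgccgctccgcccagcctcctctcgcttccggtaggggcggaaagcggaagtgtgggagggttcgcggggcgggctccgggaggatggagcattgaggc
Mob1a, chr6:83325789-83326088, plus strand: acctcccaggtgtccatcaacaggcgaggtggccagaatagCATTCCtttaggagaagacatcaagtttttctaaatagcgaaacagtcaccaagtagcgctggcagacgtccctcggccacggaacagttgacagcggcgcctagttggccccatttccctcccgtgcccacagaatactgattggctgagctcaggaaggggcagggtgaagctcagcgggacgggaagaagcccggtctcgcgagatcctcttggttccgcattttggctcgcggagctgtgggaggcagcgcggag
Lats2, chr14:57746074-57746373, minus strand: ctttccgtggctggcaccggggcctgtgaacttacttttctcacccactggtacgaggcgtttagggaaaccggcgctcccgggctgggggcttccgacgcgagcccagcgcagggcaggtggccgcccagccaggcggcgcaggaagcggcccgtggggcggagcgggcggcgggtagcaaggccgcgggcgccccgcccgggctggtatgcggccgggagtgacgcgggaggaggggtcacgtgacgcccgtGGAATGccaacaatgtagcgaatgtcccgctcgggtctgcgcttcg

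The motif was found in 3 of the 11 windows, against 14.7% of 32851 promoter windows in the same table. Its first base lies 106 bases before the start site in Sav1, 209 bases before it in Mob1a, and in Lats2 it is base 5 of the transcript. The match is of letters only, searched on both strands, and no other motif was searched. The Sav1 window is 78.3% G and C and holds 50 CpG pairs, the most of the group. The other main windows ran between 56.3% in Nf2 and 74.3% in Frmd6, all above the median of 52.7% over all promoters. CpG pairs numbered 19 in Mob1a, 20 in Stk4, 27 in Wwc1 and 37 in Lats2, against a median of 7 over all promoters.

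In RNA, calls within the group went in both directions. With TMM scaling (counts per 1e+06 reads after a trimmed-mean scaling of library sizes), Stk3 and Wwc1 were higher at E13.5, Sav1, Mob1a and Mob1b were lower, the last with its sign turned on log2(TPM + 1), and the other 5 did not pass the test. The test was edgeR's quasi-likelihood test, with p adjusted over the 15982 genes tested and a threshold of 0.05. The group's 2 higher and 3 lower calls stand beside 22.4% of all genes tested called higher and 23.5% called lower, or 45.9% in either direction. The median log2 fold change (E13.5 over E12.0) was -0.02 over the 10 genes and 0.05 over all genes tested. In TMM-scaled CPM the 2 stages did not overlap for any of the 10 genes, which held for 75.4% of all genes tested. On log2(TPM + 1), a scale per length, the median of all genes was 0.76, and the group had 5 higher and 1 lower (42.7% and 13.1% of all genes tested), so directions below are given relative to TMM unless stated. RNA from a bulk sort cannot tell fewer cells of a type from less RNA per cell.

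**Figure D1:**
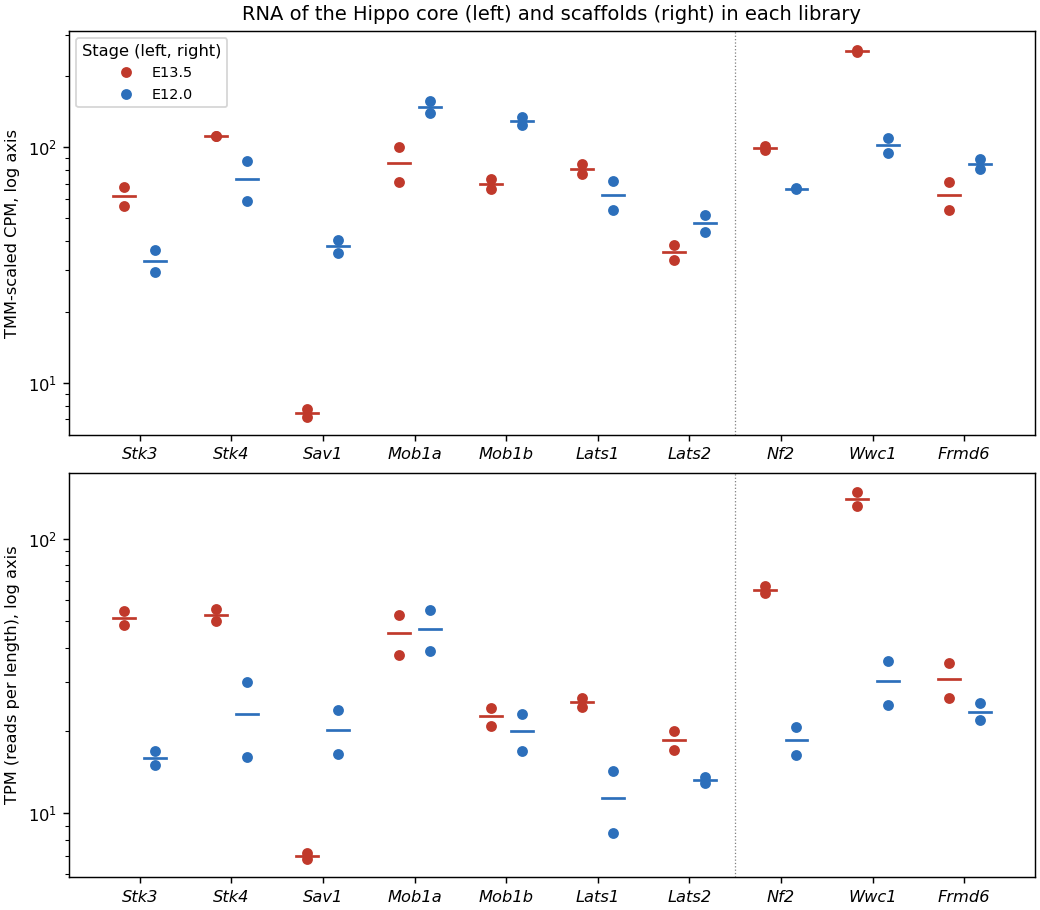
RNA level of each gene in each library on log axes, as TMM-scaled CPM (top) and TPM (bottom), E13.5 left and E12.0 right of each pair, with a bar at the mean of 2 libraries. Sav1 sits at 7.19 and 7.71 CPM at E13.5 against 35.5 and 40.4 at E12.0, Wwc1 at 260 (259.6) and 253 against 94.9 and 109, and for Mob1b, Lats2 and Frmd6 the order of the stage means turns round between the panels.

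Sav1, the WW-domain adaptor that holds Stk3 and Stk4 together and links them to Lats, had the largest difference of the group. Its level was 7.19 and 7.71 CPM in the E13.5 libraries, against 35.5 and 40.4 CPM in the E12.0 libraries. Both E13.5 libraries lay far below both E12.0 libraries, from 151 and 182 reads at E13.5 against 258 and 343 reads at E12.0. Mean levels were 7.45 ± 0.369 and 37.9 ± 3.46 CPM (SD, n = 2 per stage), and the log2 fold change was -2.35 ± 0.35 (SE, edgeR adjusted p = 0.000446). Sav1 fell on both scales, by 1.38 on log2(TPM + 1) (limma adjusted p = 0.0163), and in each fit that left out 1 library (log2 fold change -2.46 to -2.26). The annotation places 3 pseudogenes and a lncRNA over its span.

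Stk3 and Stk4 encode MST2 and MST1, the kinases at the head of the core. Stk3 stood at 56.4 and 67.7 CPM at E13.5, against 36.5 and 29.5 CPM at E12.0. Its log2 fold change was 0.91 ± 0.28 (SE, edgeR adjusted p = 0.0228), a call that ended without E13.5 replicate 2 (adjusted p = 0.137) or without E12.0 replicate 2 (adjusted p = 0.111). Stk4 stood at 112 and 112 CPM at E13.5, against 59.0 and 87.7 CPM at E12.0. The 2 E12.0 libraries differed more from each other than the E13.5 libraries did, and the log2 fold change of 0.61 ± 0.27 did not pass (edgeR adjusted p = 0.0867). On log2(TPM + 1) both kinase genes were called higher, Stk3 by 1.63 and Stk4 by 1.22, which is 0.88 and 0.47 above the median of all genes on that scale.

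Mob1a and Mob1b encode the near-identical co-activators that bind and switch on the Lats kinases. Mob1a was at 99.9 and 71.3 CPM at E13.5, against 140 (140.03) and 157 CPM at E12.0. Mob1b was at 73.3 and 66.7 CPM at E13.5, against 124 and 134 CPM at E12.0. Both E13.5 libraries were below both E12.0 libraries for each gene, with log2 fold changes of -0.80 ± 0.26 for Mob1a (SE, edgeR adjusted p = 0.0285) and -0.88 ± 0.24 for Mob1b (edgeR adjusted p = 0.0126). Neither call held on log2(TPM + 1), where Mob1a had -0.06 and Mob1b, with its sign turned, 0.18. Leaving out E13.5 replicate 2 or E12.0 replicate 2 ended the Mob1a call (adjusted p = 0.186 and 0.123) and the Mob1b call (0.0670 and 0.0582), and leaving out E12.0 replicate 1 ended the Mob1a call (0.0650). All reads given to the 10 genes were whole numbers in all 4 libraries, yet how reads shared between such similar genes were assigned is not stated by any source used here.

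Lats1 and Lats2, the kinases that phosphorylate Yap and Taz, leaned in opposite directions and neither passed the test. Lats1 had 77.3 and 84.8 CPM at E13.5, against 54.1 and 71.8 CPM at E12.0 (log2 fold change 0.36 ± 0.26, edgeR adjusted p = 0.275). Lats2 had 38.4 and 33.1 CPM at E13.5, against 51.4 and 43.8 CPM at E12.0 (-0.41 ± 0.28, edgeR adjusted p = 0.257). On log2(TPM + 1) Lats1 was called higher (1.14) and Lats2 turned positive without a call (0.45). Relative to the median of all genes on that scale they stood at 0.38 and -0.30. The Lats1 span overlaps the coding gene Pcmt1 and the Lats2 span the coding gene Gm52140, and the sources used here do not say whether counting used strand.

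Among the scaffolds, Wwc1, which encodes the cortical protein KIBRA, was the one called higher. Its level was 260 (259.6) and 253 CPM at E13.5, against 94.9 and 109 CPM at E12.0. The E13.5 libraries were close to each other and both lay above both E12.0 libraries. Mean levels were 256 ± 4.46 and 102 ± 9.96 CPM (SD, n = 2 per stage), and Wwc1 was higher by 1.33 ± 0.24 on the log2 scale (SE, edgeR adjusted p = 0.00138). Without any 1 library it was called with 1.21 to 1.43, and on log2(TPM + 1) with 2.18 (limma adjusted p = 0.000298).

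Nf2, which encodes merlin, the tumour suppressor that recruits Lats to the membrane, had 97.3 and 101 CPM at E13.5, against 66.9 and 66.2 CPM at E12.0. Its log2 fold change of 0.58 ± 0.24 missed the threshold (edgeR adjusted p = 0.0719) and was called on log2(TPM + 1) with 1.77 (limma adjusted p = 0.00118). The deposited mean length of its transcripts was 3611 and 3464 bases at E13.5, against 4679 and 4644 bases at E12.0. That is a ratio of 0.759 over its 13 transcripts, and 12.3% of the 10757 genes tested with 2 or more transcripts had a ratio below 0.8. Frmd6, a FERM-domain protein related to fly Expanded, had 71.1 and 54.3 CPM at E13.5, against 89.0 and 81.1 CPM at E12.0. Its log2 fold change was -0.44 ± 0.26 with TMM (edgeR adjusted p = 0.187) and 0.37 on log2(TPM + 1), neither of them called.

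**Figure D2:**
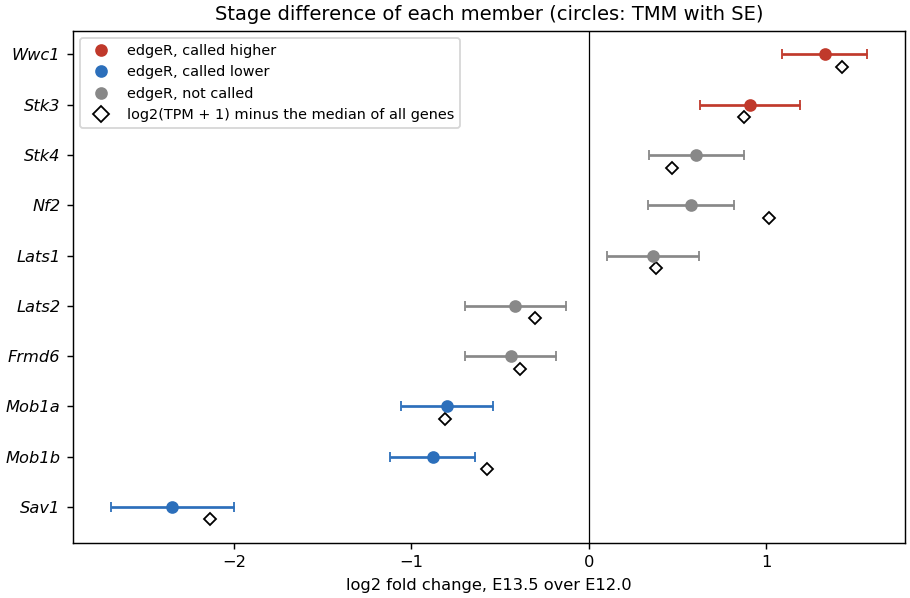
Log2 fold change of each gene, E13.5 over E12.0, with TMM scaling (circles, bars are SE derived from the edgeR F statistic, 2 libraries per stage) and on log2(TPM + 1) minus the median of all genes (diamonds). All 10 diamonds lie on the same side of 0 as their circles, from -2.13 for Sav1 to 1.43 for Wwc1, while without that subtraction Mob1b, Lats2 and Frmd6 change sign. Circles and diamonds come from the same reads, so their shared side is not a separate check.

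Once the shift of all genes is taken off, the per-length scale gave the same sign as TMM for all 10 genes. Both scales rest on the same reads, and TMM already had the median of all genes at 0.05. The shared sign is thus largely built in and is not a separate check of direction. The values relative to the median were 1.43 for Wwc1, 1.02 for Nf2, -0.39 for Frmd6, -0.57 for Mob1b, -0.81 for Mob1a and -2.13 for Sav1. Nf2 moved most between the scales, with 1.02 here and 0.58 with TMM, and it is the gene whose deposited length differed most between the stages.

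Levels can be set against each other within a library only per length. In TPM at E13.5 Wwc1 stood first at 139.6 ± 12.1, followed by Nf2 at 65.1 ± 2.73, Stk4 at 52.8 ± 3.77 and Stk3 at 51.5 ± 4.07 (SD, n = 2). Sav1 stood last at 7.003 ± 0.232 TPM. Between neighbours in that order, the libraries of Stk4 and Stk3 overlapped, as did those of Stk3 and Mob1a (45.2 ± 10.7 TPM), and the other neighbours were apart. At E12.0 Mob1a stood first at 47.0 ± 11.5 TPM and Wwc1 next at 30.4 ± 7.77 TPM. From Wwc1 down to Stk3 at 15.9 ± 1.29 TPM, each of the 7 genes overlapped its neighbour, with Sav1 among them at 20.1 ± 5.11 TPM. Lats2 at 13.2 ± 0.481 and Lats1 at 11.3 ± 4.07 TPM closed the E12.0 order.

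Ratios of TPM between genes of the same library do not depend on the scaling of that library, though they do on the deposited lengths. Sav1 stood at 0.0657 and 0.0686 of the sum of Stk3 and Stk4 at E13.5, against 0.531 and 0.504 at E12.0. RNA of the adaptor was thus at a smaller share of the RNA of its kinases in both E13.5 libraries, the widest gap among the 8 ratios computed. This ratio rests on the same reads as the differences of Sav1, Stk3 and Stk4 above, so it is not a separate check of them. Protein was not measured. The Wwc1 to Frmd6 ratio was 4.20 and 4.97 at E13.5, against 1.14 and 1.43 at E12.0. The Nf2 to Frmd6 ratio was 1.79 and 2.54 at E13.5, against 0.748 and 0.819 at E12.0. Both scaffold ratios were higher in each E13.5 library than in either E12.0 library.

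The Lats1 to Lats2 ratio was 1.22 and 1.55 at E13.5, against 0.657 and 1.05 at E12.0. The sum of both Lats genes over the sum of both Stk genes was 0.427 and 0.414 at E13.5, against 0.687 and 0.590 at E12.0. Both Mob1 genes together stood at 1.66 and 1.43 times both Lats genes at E13.5, against 2.62 and 2.81 at E12.0. In these ratios the stages did not overlap. They overlapped within the paralogue pairs Stk3 to Stk4 (0.877 and 1.09 at E13.5, against 0.940 and 0.560 at E12.0) and Mob1a to Mob1b (2.53 and 1.55 at E13.5, against 2.30 and 2.41 at E12.0). With 2 libraries per stage a two-sided exact permutation test cannot give a p below 0.333, so none was run on the ratios. How often ratios of other gene pairs do not overlap between the stages was not computed. In CPM the stages did not overlap for 75.4% of all genes tested.

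**Figure D3:**
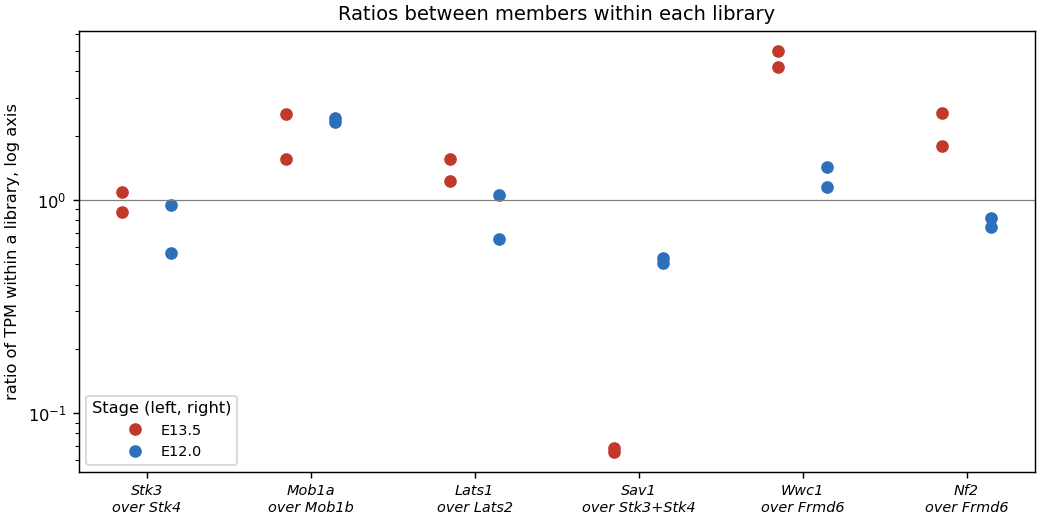
Ratio of TPM between 2 genes (or a gene and a sum of 2) within each RNA library, on a log axis, E13.5 left and E12.0 right, 1 point per library, with a line at 1. Sav1 over Stk3+Stk4 lies at 0.0657 and 0.0686 at E13.5 against 0.531 and 0.504 at E12.0, while the stages overlap for Stk3 over Stk4 and for Mob1a over Mob1b.

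Other genes of the Hippo pathway also had calls in both directions. Of 63 further genes found, 62 were tested, of which 10 were higher (16.1%, against 22.4% of all genes tested) and 12 lower (19.4%, against 23.5%) at E13.5, with a median log2 fold change of -0.02, against 0.05 over all genes. On log2(TPM + 1) the counts were 28 higher and 2 lower, where 42.7% and 13.1% of all genes were called. Without E12.0 replicate 1 the lower count was 6 with TMM, where 16.4% of all genes were called lower. Of 12 kinases that act beside Stk3 and Stk4 or beside Lats, 2 were higher and 3 lower, and the shares over all genes above are the background for this list and the next 3. They include the Stk3 activator gene Taok2 at 2.84 ± 0.31 and the Lats-related kinase gene Stk38l at 1.42 ± 0.29. Map4k4, a kinase that can phosphorylate Lats, had -1.58 ± 0.34 with TMM and a turned sign, 0.30, on log2(TPM + 1), and Map4k5, a related kinase gene, had -1.24 ± 0.27.

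Of 17 tested genes of STRIPAK, the phosphatase complex that restrains Stk3 and Stk4, 4 were higher and 3 lower. The scaffold gene Strn4 had 2.24 ± 0.27. Stk24, a kinase of the complex, had -1.56 ± 0.40, and the phosphatase subunit gene Ppp2r1a -1.38 ± 0.32. The Stk24 call ended without E12.0 replicate 2 (-1.18, edgeR adjusted p = 0.0750), and the Ppp2r1a call without E12.0 replicate 1 (-0.92, edgeR adjusted p = 0.0602). Of 20 Rassf and other scaffold genes, 4 were higher and 5 lower. Patj, a cell polarity protein, had 1.77 ± 0.29, while Dlg5, a membrane scaffold, had -2.16 ± 0.27 and kept its call on log2(TPM + 1), alone among the lower genes named in these lists. From the Rassf family, which binds Stk3 and Stk4, Rassf3 had -1.80 ± 0.66 and Rassf4 1.70 ± 0.46. The Rassf3 call was lost in 3 of the 4 fits that leave out a library, those without E13.5 replicate 2 and without either E12.0 replicate (edgeR adjusted p = 0.174, 0.189 and 0.0590). Rassf4 no longer passed in the fit without E12.0 replicate 1 (edgeR adjusted p = 0.0600). Of 13 genes for ligases and Mark kinases, none was higher and 1 was lower, the ligase adaptor gene Ddb1 (-0.85 ± 0.25). Its call was lost without E13.5 replicate 1 or either E12.0 replicate (edgeR adjusted p = 0.108, 0.0785 and 0.0565). Downstream of the core, Yap1 had 97.4 and 105 CPM at E13.5 against 253 and 269 at E12.0 (-1.37 ± 0.24, edgeR adjusted p = 0.0011). Wwtr1, the Taz gene, had 49.1 and 53.5 against 269 and 179 (-2.12 ± 0.28, edgeR adjusted p = 0.000215), and unlike Yap1 was also called on log2(TPM + 1). Tead1 (-1.68 ± 0.32) and Tead2 (-0.80 ± 0.24) were lower with TMM and not called on log2(TPM + 1), where Tead2 had 0.21. The Tead2 call also ended without E13.5 replicate 2, E12.0 replicate 1 or E12.0 replicate 2 (edgeR adjusted p = 0.129, 0.0758 and 0.0721), and Tead3 and Tead4 passed neither test.

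The promoters of the 9 genes were open at both stages. In each of the 6 ATAC libraries a deposited peak overlapped the main promoter window of all 9, against 49.9 to 50.5% of all promoter windows at E13.5 and 43.4 to 47.6% at E12.0. The second windows of Nf2 and Lats2 were overlapped in none of the 6. The authors' fold of a peak, its signal over the local background in that library, describes peaks within a list only. At the Nf2 promoter it was 20.7, 15.8 and 18.4 in the E13.5 libraries and 14.9, 15.9 and 12.8 in the E12.0 libraries. At the Sav1 promoter it was 9.61, 9.02 and 9.53 at E13.5 and 6.41, 11.3 and 7.75 at E12.0, and at the Wwc1 promoter 9.62, 8.74 and 9.27 at E13.5 and 4.55, 8.93 and 6.04 at E12.0. So the promoter with the least RNA at E13.5 and that with the most both held peaks in every library. Stk3, which has no window, had a region held in all 6 libraries over the upper end of its span (chr15:35155185-35156101, folds 9.19 to 19.7).

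H3K27ac, a mark of active promoters and enhancers, was called at the promoters far less evenly. E13.5 replicate 1 held peaks at 8 of the 9 genes (30.6% of all promoter windows) and E13.5 replicate 2 at 1 (6.28%). E12.0 replicate 1 held them at 3 (22.5%), namely Stk4, Lats1 and Nf2, and E12.0 replicate 2 at 1 (14.5%). Stk4 was the 1 gene held in all 4 libraries, with folds of 4.59 and 3.59 at E13.5 and 3.19 and 3.23 at E12.0. The Sav1 promoter held no H3K27ac peak in any library. Replicates of E13.5 thus ranged from 1 to 8 genes, and no stage difference was read from these promoters. For Tead, replicate 1 held a peak at none of the 9 genes (1.89% of all promoter windows) and replicate 2 at Stk4 and Nf2 (18.4%), with folds of 2.78 and 2.65. Neither of these 2 windows holds the letters GGAATG or CATTCC.

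Across the windows of 50 kb around the 10 genes, 340 of 335286 merged ATAC regions were found. Held by all 3 E13.5 libraries and none of E12.0 were 25 of them, or 7.35%, against 6.6% of all ATAC regions and 6.0% of those within 50 kb of any protein-coding gene. The opposite pattern occurred in 0 regions, against 0.0465% of all regions and 0.049% of those near coding genes. All 6 libraries held 52 (15.3%, against 10.1% of all regions and 12.2% of those near coding genes). The share of E13.5-only regions was therefore close to the background. The E13.5 lists held 151927 to 161637 intervals and the E12.0 lists 99201 to 119912, and with the same number of strongest peaks from each library the E13.5-only count was 14 (5.26%, against 4.91% of all regions in that setting). Without E13.5 replicate 2 it was 39 of 325, against 10.4% of all regions, and without any 1 of the E12.0 libraries the E12.0-only count was 1 (0.32 to 0.417% of all regions). The windows also hold 1 to 6 other coding genes each, so nearness does not assign a region to the gene.

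Stk3 had 6 of the 25 E13.5-only regions, Mob1b, Lats2, Nf2 and Wwc1 had 3 each, Lats1 and Frmd6 had 2 each, and Stk4, Sav1 and Mob1a had 1 each. The Stk3 window is the longest, at 380384 bp, and per 100 kb of window Stk3 had 1.58 of them, below Mob1b with 2.18 and Lats2 with 1.92. None lay over a promoter window, 12 lay inside the span of the gene and 7 over another coding gene. The strongest by its smallest fold was in Stk3 (chr15:34904517-34905101), with folds of 11.8, 10.02 and 14.3. It overlaps an H3K27ac region (chr15:34904326-34905221) held by both E13.5 libraries, with folds of 4.36 and 3.66, and by neither E12.0 library. Stk3 is the only 1 of the 10 genes where an E13.5-only ATAC region coincided with an E13.5-only H3K27ac region. The strongest in Nf2 (chr11:4817005-4817638, folds 5.89, 4.36 and 8.61) lies within an H3K27ac region (chr11:4816594-4817905) that all 4 libraries held, so there the mark was called at both stages and the open region at E13.5 only. The strongest for the other 8 genes had smallest folds between 2.18 in Sav1 (chr12:69973670-69973986) and 3.998 near Lats2 (chr14:57787451-57787916). In all, 5 of the 25 (20.0%) overlapped an H3K27ac region of both E13.5 libraries, against 5.05% of all E13.5-only regions, and 0 overlapped a Tead region of both libraries, against 0.307%. The other 3 were a pair near Lats2 over Gm52140 and 1 in Wwc1, and these counts were not tested.

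**Figure D4:**
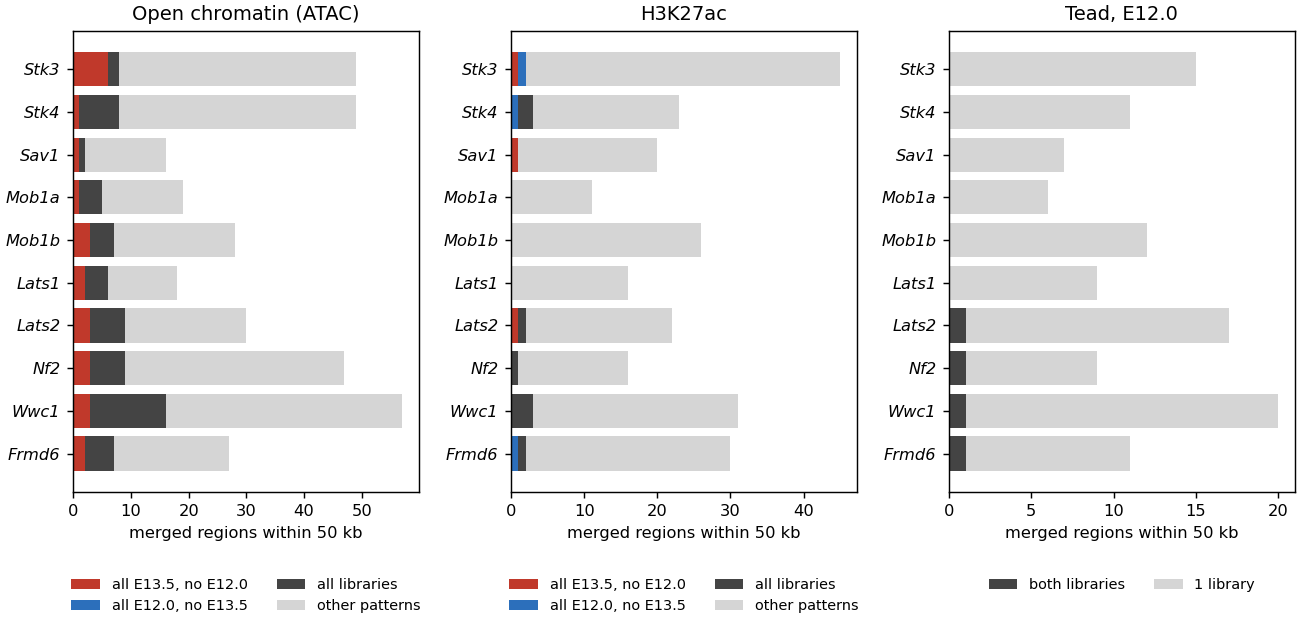
Number of merged regions within 50 kb of each gene by the libraries that held them, for ATAC (3 libraries per stage), H3K27ac (2 per stage) and Tead (2 at E12.0). Stk3, with the longest window, has the most E13.5-only ATAC regions with 6, Wwc1 the most held by all ATAC libraries with 13, and most regions of each assay (grey) follow neither pattern.

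Wwc1 led in regions shared by all libraries. It had 13 ATAC regions held by all 6, followed by Stk4 with 7, Lats2 and Nf2 with 6, Frmd6 with 5, and Mob1a, Mob1b and Lats1 with 4. Stk3 had 2 and Sav1 had 1, its promoter. Of the 240 H3K27ac regions near the genes, out of 267936, all 4 libraries held 8 (3.33%, against 1.97% of all and 2.48% of those near coding genes). They lay in or near Wwc1 (3), Stk4 (2), Lats2, Nf2 and Frmd6. The 3 in Wwc1 had folds of 3.29 to 7.89. At a deposited −log10 q of at least 3, all 4 libraries held 0 of 85 regions near the genes, against 0.657% of all regions. Where an interval had to cover at least 25% of the region, they held 3 (1.25%, against 0.973% of all). Per 100 kb of window, ATAC regions of all 6 libraries numbered 5.37 in Wwc1, 3.86 in Stk4, 0.812 in Sav1 and 0.526 in Stk3.

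H3K27ac regions of 1 stage were few. E13.5 only was seen in 3 of the 240 (1.25%, against 1.4% of all H3K27ac regions and 1.33% of those near coding genes), the one in Stk3 above, 1 in Sav1 (chr12:69968046-69968455, folds 2.78 and 2.66) and 1 in Lats2 (chr14:57720917-57721491, smallest fold 3.53). E12.0 only was seen in 3 (1.25%, against 0.877% of all and 1.03% of those near coding genes). These lay 69 bp past the upper end of Stk3 (chr15:35155951-35156337, folds 2.47 and 4.31), 40933 bp from Stk4 (chr2:164196457-164196758, folds 2.78 and 2.96) and 29955 bp from Frmd6 (chr12:70794871-70795501, folds 4.02 and 3.50). Stk3 thus had a region of each kind, the E13.5-only one toward the lower end of its span and the E12.0-only one past the upper end. The E12.0-only one overlaps the region at that end that every ATAC library held. It was called at the stage with less Stk3 RNA, and the E13.5-only one at the stage with more. The mark in Sav1 was called at E13.5, the stage with less Sav1 RNA. The E13.5-only count was 33 without E13.5 replicate 1, 87 without E13.5 replicate 2 and 5 without E12.0 replicate 1. Of all H3K27ac regions, 30.3%, 36.2% and 2.67% were then E13.5 only, so the counts moved with the whole lists. The E12.0-only count was 14 without E13.5 replicate 1, 30 without E12.0 replicate 1 and 41 without E12.0 replicate 2, where 5.24%, 27.6% and 14.8% of all regions were E12.0 only. At a deposited −log10 q of at least 3 the E12.0-only count was 0, against 0.257% of all regions.

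Tead binding at E12.0 near the 10 genes was mostly called in 1 library. Of 117 regions near them, out of 74967, 20 were held by replicate 1 and 101 by replicate 2, and 4 by both (3.42%, against 2.12% of all Tead regions and 2.28% of those near coding genes). The 1 inside Wwc1 (chr11:35864401-35865618, folds 3.05 and 3.28) was open in all 6 ATAC libraries and carried H3K27ac in all 4. The 1 inside Frmd6 (chr12:70843047-70843553, folds 2.42 and 1.92) overlapped no region open in all libraries of either stage and no H3K27ac region of both libraries of either stage. The 2 others lay over neighbours, 1 over Xpo4 in the Lats2 window (chr14:57663822-57664539, 25123 bp from Lats2) and 1 over the Nipsnap1 promoter in the Nf2 window (chr11:4873772-4874453, 24228 bp from Nf2). None lay over a promoter of the 10 genes. Of the 4, 3 overlapped regions open in all E13.5 libraries (69.9% of all Tead regions of both libraries) and 3 in all E12.0 libraries (57.9%). Regions with H3K27ac in both libraries overlapped 1 of the 4 at E13.5 (36.3%) and 3 at E12.0 (53.1%). Replicate 1 was made with the KAPA kit and replicate 2 with the Accel kit. At a deposited −log10 q of at least 3 no region was held by both, and with the same number of strongest peaks from each library 2 were (1.01% and 2.97% of all Tead regions in these settings).

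**Figure D5:**
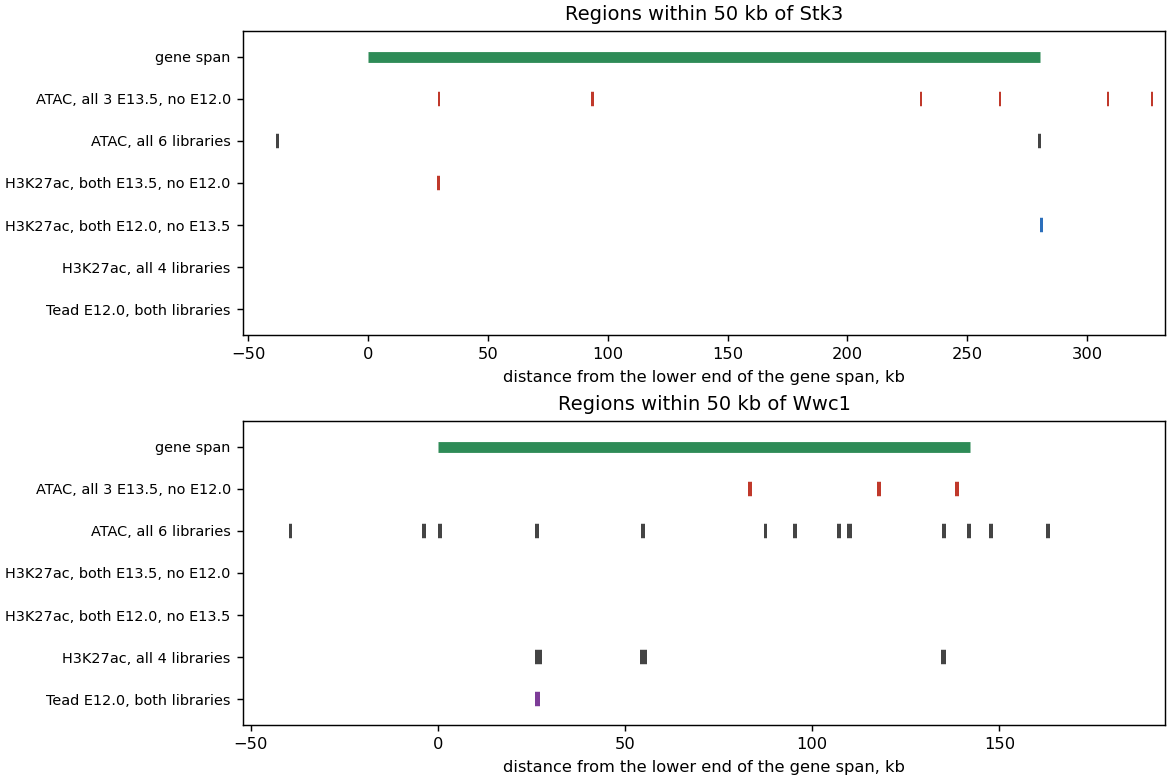
Maps of the Stk3 and Wwc1 windows, with the gene span and the merged regions of each class, drawn by distance in kb from the lower end of the span (regions are drawn at least 1 kb wide). Stk3 holds 6 E13.5-only ATAC regions, the first of which coincides with an E13.5-only H3K27ac region, while Wwc1 holds 13 ATAC and 3 H3K27ac regions of all libraries and 1 Tead region over the first of these 3.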

How the data were processed

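Gene groups and comparisons were chosen with earlier results of these data known. Each RNA table, as deposited, gives expected counts and lengths per Ensembl gene. No source used here states the quantifier. RNA was poly(A) selected for TruSeq libraries, per the labels' protocols. STAR, UMI-tools and MACS2, and the builds GRCm38 and mm10, are named without versions, per the submitters' processing notes. After rounding, filterByExpr left 15982 of 48709 genes, which edgeR 4.0.16 (R 4.3.3) tested after TMM scaling (quasi-likelihood, 2 against 2 libraries, no covariate, Benjamini-Hochberg adjustment over all genes tested, threshold 0.05). Each SE of a log2 fold change was computed as the absolute change over the square root of edgeR's F statistic. CPM is per 1e+06 of the TMM-scaled library, and 1 read was 0.0424 to 0.138 CPM. TPM came from expected counts over effective lengths, and limma 3.58.1 was run on log2(TPM + 1). The RNA steps were tested on simulated data. Replicates of a stage were separate libraries by a chi-square test of their counts (46.7 per degree of freedom at E13.5, 29.7 at E12.0). Symbols were matched for 48349 identifiers, and 2 listed pathway genes were not found.

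Peaks were deposited as 1 list per library, each peak with the authors' fold (a ratio) and the authors' −log10 p and −log10 q. The smallest −log10 p was 2.0 to 2.51, a permissive limit. The 3 E12.0 ATAC lists held 58 to 90 lines off the main chromosomes and the E13.5 lists 0, so the deposited filters differed between stages. The KAPA kit made the first E12.0 replicate for H3K27ac and for Tead, and the Accel kit the other CUT&RUN libraries, per the labels' protocols. For each assay the lists were merged into regions, and a region counted as held by a library whose intervals overlapped it by at least 1 bp. Lists give no reads per region, so regions were counted and not tested. Gene spans and promoter sequences came from RefSeq tables of GRCm38.p6, the assembly the notes name. Named genes were all 10 members, both reporter genes, the Yap, Taz and Tead genes, and up to 4 per pathway list with the largest change among those called and not overlapping between stages. A gene that this rule would name is not reported here. Marker genes, mt-Rnr2 and neighbours of a region were named beside results they touch. Regions named were those over a promoter and the strongest of 1 stage per gene, and the others were chosen after their values were seen. Alternatives were DESeq2 1.42.0 (as test and for size factors), no filter, log2(TPM + 1), a replicate block, leaving out libraries, a −log10 q of at least 3, equal list lengths, 25% overlap and 10 kb.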

Additional observations from a re-analysis of the deposited data

How the results depend on the processing

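With DESeq2, its size factors, no filter on low counts, or the replicate block, the group kept 2 genes higher and 3 lower at E13.5. Of all genes tested, 15.2 to 21.5% were called higher and 14.7 to 24.6% lower in these settings. Same-numbered replicates did not deviate together (correlation -0.0049), so the block rests on a shared number only. It gave 9 higher and 13 lower of the other pathway genes. On log2(TPM + 1), 42.7% of all genes tested were called higher and 13.1% lower. There the group had 5 higher and 1 lower and the other pathway genes 28 and 2. On the same scale without mitochondrial genes, a setting chosen after seeing the data, these were 4 and 1, and 23 and 3. All genes tested were then called higher in 37.2% and lower in 14.8%. Signs turned on log2(TPM + 1) for Mob1b (0.18), Lats2 (0.45) and Frmd6 (0.37), and without mitochondrial genes for Lats2 (0.27) and Frmd6 (0.18). The median of all genes was then 0.60, against 0.76 with them. Leaving out 1 RNA library gave 1 to 2 group genes higher and 1 to 3 lower, and 7 to 11 and 6 to 11 of the other pathway genes. The lone library of a stage is then assumed to vary like the other stage. In all these settings Sav1 was called lower and Wwc1 higher.

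E13.5-only ATAC regions numbered 14 with equal list lengths (5.26%, against 4.91% of all regions) and 15 within 10 kb (7.73%, against 6.6%). Without 1 library they numbered 28 to 39 (8.58 to 12.1%, against 8.29 to 11.8% of all regions). E12.0-only ATAC regions numbered 0 to 1 without 1 library (0.0 to 0.357%, against 0.0655 to 0.417% of all regions). E13.5-only H3K27ac regions ran from 4 to 87 without 1 library (1.88 to 41.2%, against 2.25 to 36.2% of all regions). E12.0-only H3K27ac regions numbered 0 at a −log10 q of at least 3 (0.257% of all regions) and 1 within 10 kb (0.613%, against 0.877%). Without 1 library they numbered 4 to 41 (1.9 to 19.2%, against 1.29 to 27.6% of all regions). H3K27ac regions of all 4 libraries numbered 0 at a −log10 q of at least 3 (0.657% of all regions) and 3 with 25% overlap (1.25%, against 0.973%). Tead regions of both libraries numbered 0 at a −log10 q of at least 3 (1.01% of all Tead regions). They numbered 2 with equal list lengths (3.85%, against 2.97%) and 2 within 10 kb (2.35%, against 2.12%). With 1 library left out, a region needs fewer libraries to count as of 1 stage, so such counts can rise by the rule alone. The settings for q, list length and 10 kb leave out peaks or regions. Any other part in these changes was not tested. With 2 libraries per stage small RNA changes can be missed, and the E12.0 libraries had fewer reads.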
